A study of Danio rerio with 6 samples.

Results

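The genes that copy the chromosomes and divide the cell were compared between zebrafish (Danio rerio) embryos injected with a control morpholino and embryos of the same stage injected with a glut12 morpholino. The members were 39 gene names, taken as a list, and the files' symbol column held 37 of them on 41 rows, of 31452 genes in all. The names mcm3 and rrm2 each stood on 2 rows and mcm5 on 3. No row carried the symbol mcm2, which was not analysed here, and mki67 was matched only by its gene ID, to a row headed MKI67, which is described apart from the 41. All 41 rows passed the filter on low values described below.

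The control group was 3 libraries from whole embryos given a control morpholino (controls 1 to 3), and the other group 3 libraries from whole embryos given a morpholino against a splice site of glut12 (morphants 1 to 3). A morpholino is an antisense oligomer that blocks its target transcript without altering the gene, so the morphants are a knockdown and not a mutant, and one aimed at splicing can act without changing the number of reads. All embryos were 4 days post fertilization, grown in egg water under the same protocol, and total RNA was extracted from pools of 10 embryos per library. The labels name no strain and leave the parentage of the pools unstated. The p-values therefore reflect only how far these pools vary, and some of that variation may be technical. The targeted gene, listed as slc2a12 (ENSDARG00000036865), had normalised read counts of 160, 145 and 143 in controls 1 to 3 and 98, 97 and 90 in morphants 1 to 3, lower in all morphants (log2 fold change -0.65 ± 0.13, SE, 3 libraries a group; limma adjusted p = 0.158, and 0.0467 with library weights for slc2a12).

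Before a cell copies its DNA, the origin recognition complex, Cdc6 and Cdt1 load the Mcm2 to Mcm7 helicase onto the chromosomes, a step called licensing that geminin holds in check by binding Cdt1. Cyclin and Cdk pairs then fire the origins, the sliding clamp PCNA keeps the polymerases on the template, and ribonucleotide reductase supplies the nucleotides. In mitosis Cdk1 with cyclin B, Polo-like and Aurora kinases build the spindle, and the checkpoint proteins Mad2, Bub1, Bub3 and Mps1 hold back Cdc20 until every chromosome is attached. In a zebrafish larva most muscle, skin and nerve cells have left the cycle, and division goes on in places such as the rim of the retina, the ventricular zones of the brain, blood and gut. In whole-embryo RNA fewer dividing cells and less of a transcript in each dividing cell cannot be told apart.

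Values are read counts per gene that the authors had divided by a size factor for each library and rounded. Their totals lay between 10397713 and 11762915 per library, and the reads behind them, estimated from the spacing of low values, between 7550000 in control 1 and 15180000 in morphant 1. Control 1 stood apart: across 15942 genes of mean 50 or more, which are not independent replicates, r of its log2 values was 0.961 with control 2 and 0.955 with control 3, against 0.987 between controls 2 and 3. Group differences are given on the scale log2(value + 1), morphant minus control, from limma fitted over 26082 genes, with Benjamini-Hochberg adjustment over all of them, and fold changes on that scale understate the change of low genes. Markers of 13 tissues were summed in each library, and every sum was above 0. At these read depths that could hardly fail, so it does not check the label of whole embryos.

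No replication or division gene passed the test between the groups. Among the 41 rows limma called 0 higher and 0 lower in morphants at an adjusted p of 0.05, where over all genes 0.023% were called higher and 0.0% lower. At an unadjusted p of 0.05, 0 rows were higher and 1 was lower, against 8.99% and 6.93% of all genes. A p that misses the threshold does not show that the groups were alike, and the intervals given below bound the difference instead. The median log2 fold change of the 41 rows was 0.00, with 21 positive and 20 negative, and the median over all genes was 0.00 too. Scaling the libraries to equal totals raised the median of all genes by 0.11 and that of the members by the same amount, to 0.11, so relative to all genes it stayed at 0.00 while 34 of the 41 became positive. Without control 1 there were 0 rows past an unadjusted p of 0.05 in either direction, against 13.1% of all genes, and the median was 0.03.

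**Figure D1:**
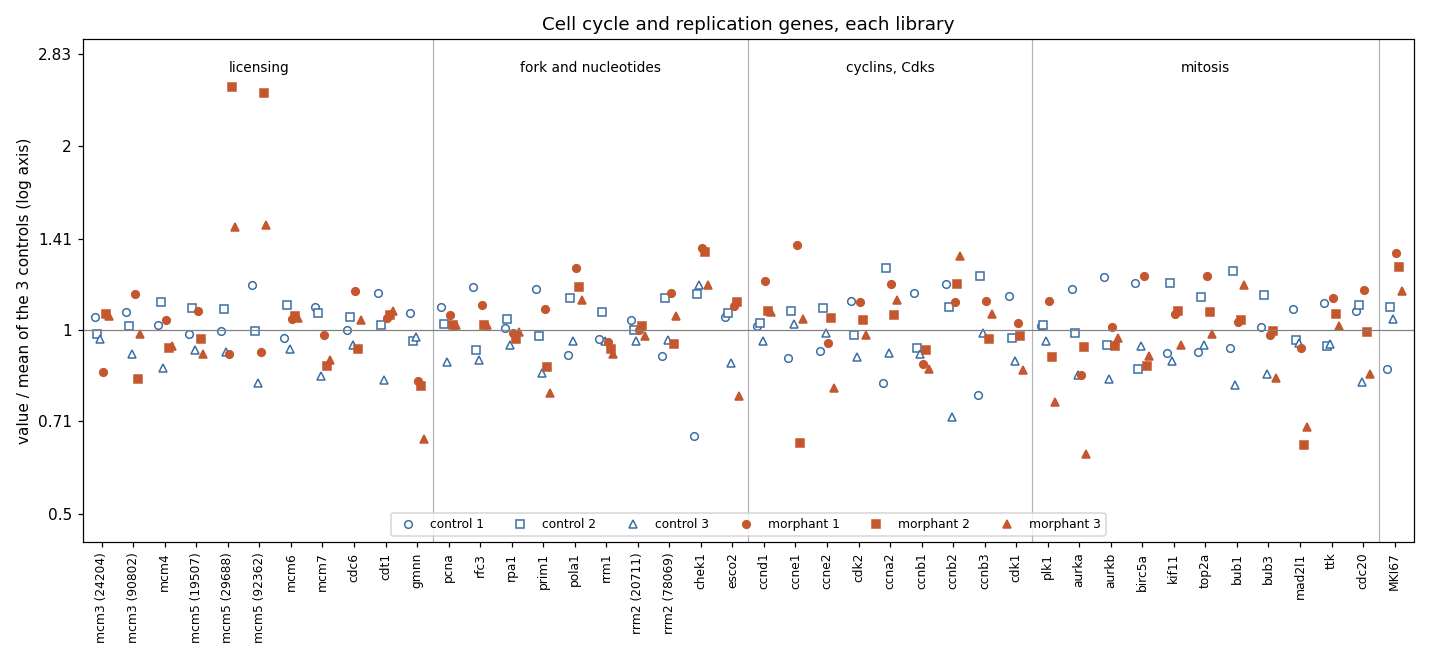
Each gene's normalised read count in each library divided by the mean of its 3 controls, on a log axis; open blue symbols are controls, filled red ones morphants, and numbers in brackets are the last digits of the gene ID. The red and blue symbols are interleaved for most genes, and the widest departures are the morphant 2 values of 2 rows headed mcm5.

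Of the 3 rows headed mcm5, 1 is the helicase subunit and 2 carry another name in the current gene table. The row ENSDARG00000019507 (chromosome 3, Zv9), named MCM5 there, had 740, 816 and 698 in controls 1 to 3 and 809, 728 and 687 in morphants 1 to 3. The rows ENSDARG00000029688 and ENSDARG00000092362, on the same chromosome, are named hsp70.1 and HSPA2 in that table, names of the Hsp70 family of heat shock chaperones. The first of them had values of 274, 297 and 253 for the control libraries and 251, 686 and 405 for the morphant ones, and the second 176, 148 and 122 and then 137, 364 and 221. Morphants 2 and 3 lay above all controls on both rows, and morphant 1 was within the control range on the second and just under it on the first. Their log2 fold changes were 0.59 ± 0.31 and 0.60 ± 0.32 (SE, 3 libraries a group; limma adjusted p = 0.383 and 0.392), the largest of the 41 rows.

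The rows outside the list headed hsp70l, chosen after their values were seen, ran in the same order across the morphants. The row ENSDARG00000021924 (chromosome 3), headed hsp70l and named hsp70.3 in the current table, had 433, 331 and 338 across controls and 332, 754 and 468 across morphants. The row ENSDARG00000055723 (chromosome 8), headed hsp70l in both, had 226, 210 and 164 and then 173, 435 and 271. Morphant 2 was the highest library and morphant 3 the second highest on all 4 of these rows, whereas neither was so on the mcm5 row ENSDARG00000019507. Set against that row in the same library, ENSDARG00000029688 stood at a ratio of 0.37, 0.36 and 0.36 across controls and 0.31, 0.94 and 0.59 across morphants. The Hsp70 family row headed hspa8, also chosen after its values were seen, went the other way. It was at 42792, 40155 and 35435 across controls and 32663, 27145 and 32698 across morphants, lowest in morphant 2. Its log2 fold change was -0.36 ± 0.12 (limma adjusted p = 0.243). Hsp70 copies are similar in sequence, and how the authors' counting divided reads among them is not given in the sources used here. Without morphant 1 the log2 fold change was 0.94 on both Hsp70-named rows headed mcm5 (limma adjusted p = 0.208 and 0.232). Without morphant 2 it was 0.22 and 0.24 (limma adjusted p = 0.722 and 0.745). The other 39 rows are described from here on as the replication and division genes.

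**Figure D2:**
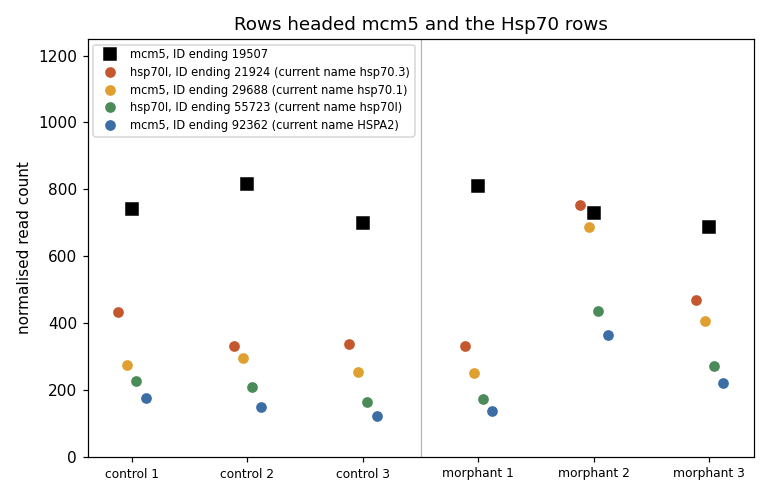
Normalised read counts in each library of the 3 rows headed mcm5 and of the 2 rows headed hsp70l. The mcm5 row that keeps this name in the current table (black squares) lies between 687 and 816, while the other 4 rows are all highest in morphant 2 and second highest in morphant 3.

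Licensing genes showed 3 positive and 6 negative log2 fold changes among 9 rows, with a median of -0.02 and a range from -0.38 to 0.10. For the helicase subunit mcm6 the values were 742, 840 and 714 across controls and 797, 806 and 800 across morphants, and the morphant values fell inside the control range. The subunit mcm7 had 1571, 1540 and 1212 and then 1414, 1261 and 1289, again inside the control range (log2 fold change -0.12 ± 0.11, 95% interval -0.38 to 0.14; limma adjusted p = 0.642). The remaining helicase rows, mcm4, mcm5 and both rows headed mcm3, had log2 fold changes between -0.03 and -0.02. These 6 helicase rows all had limma 95% intervals that lay wholly within a 1.5-fold change either way.

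The helicase loaders overlapped between groups and their inhibitor did not. The loader cdc6 was at 139, 146 and 131 across controls and 161, 129 and 144 across morphants. The loader cdt1 was at 89, 79 and 64 and then at 81, 82 and 83, so its morphant values lay inside the control range. The geminin gene gmnn, which encodes the inhibitor of Cdt1, was at 79, 71 and 72 across controls and 61, 60 and 49 across morphants. All 3 morphants lay below all 3 controls for gmnn, with a log2 fold change of -0.38 ± 0.17 (SE, 3 libraries a group; unadjusted p = 0.0563, limma adjusted p = 0.325), and its adjusted p ranged from 0.27 to 0.608 over the alternatives. Between 44 and 86 reads were estimated behind each of its values.

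Genes of the replication fork and of nucleotide supply had 5 positive and 5 negative log2 fold changes among 10 rows, with a median of 0.03. The clamp gene pcna, the usual marker of S phase, was at 2653, 2482 and 2151 across controls and 2575, 2477 and 2481 across morphants, with both the highest and the lowest value in a control. Its log2 fold change was 0.05 ± 0.09, with a 95% interval of -0.16 to 0.27, or 0.90-fold to 1.20-fold (limma adjusted p = 0.809). The single-strand binding protein gene rpa1 was at 765, 791 and 718 and then at 751, 733 and 753 (0.87-fold to 1.12-fold). The small ribonucleotide reductase subunit rrm2 on chromosome 20 was at 659, 634 and 608 and then at 633, 643 and 620, and its highest library was 1.08 times its lowest, the smallest such ratio among the rows. The second row headed rrm2, on chromosome 19, was at 511, 636 and 543 and then at 648, 535 and 595.

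The large reductase subunit and the polymerase alpha catalytic subunit had estimates of opposite sign. The large subunit gene rrm1 was at 1094, 1212 and 1083 across controls and 1082, 1053 and 1033 across morphants. Its groups did not overlap, but control 3 and morphant 1 were 1 unit apart, and its log2 fold change was -0.10 ± 0.08 (limma adjusted p = 0.585; log2 fold change 0.02 with equal library totals). The gene pola1, whose product makes the primer with primase, was at 299, 370 and 315 across controls and 415, 386 and 367 across morphants. Morphant 3 lay below control 2, and the log2 fold change was 0.25 ± 0.11, with an interval of -0.01 to 0.51 (unadjusted p = 0.0543, limma adjusted p = 0.321). Under equal totals it was 0.36 (unadjusted p = 0.0119, limma adjusted p = 0.187). The primase gene prim1 was at 246, 206 and 179 and then at 228, 183 and 166, overlapping throughout.

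Of the other fork rows, the clamp loader gene rfc3 had 178, 140 and 135 across controls and 166, 154 and 154 across morphants, and esco2, whose product acetylates cohesin during S phase, 227, 231 and 191 and then 237, 241 and 169. The checkpoint kinase gene chek1, which restrains late origins and mitotic entry, was at 34, 58 and 60 and then at 69, 68 and 60. Its control 1 value rested on about 22 estimated reads, the fewest behind any of the replication and division genes. With that library its log2 fold change was 0.41 ± 0.25 (limma adjusted p = 0.443) and without it 0.15.

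Cyclin and Cdk genes gave 5 positive and 4 negative log2 fold changes among 9 rows, with a median of 0.06 (0.18 with equal library totals, where the median of all genes was 0.11). Cyclin D1, the partner of Cdk4 and Cdk6 that links growth signals to entry into the cycle, was the single replication and division gene above all controls in all morphants. Its gene ccnd1 was at 1536, 1553 and 1452 across controls and 1824, 1630 and 1621 across morphants. The log2 fold change was 0.16 ± 0.08 (SE, 3 libraries a group), 0.98-fold to 1.27-fold at 95% (unadjusted p = 0.0851, limma adjusted p = 0.373). Scaled to equal totals it was 0.27 (unadjusted p = 0.00593, limma adjusted p = 0.17), the lowest adjusted p it reached under the alternatives. Across the rows the groups did not overlap for 1 higher and 3 lower genes, against 11.6% and 10.2% of all genes tested.

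The later cyclins showed overlapping groups. The cyclin E genes, which act with Cdk2 at the start of S phase, were at 51, 61 and 58 and then 78, 37 and 59 for ccne1, and at 156, 184 and 167 and then 161, 177 and 136 for ccne2. For ccne1 the highest and the lowest library were both morphants, and its highest value was 2.11 times its lowest, the widest ratio among these genes. Their kinase gene cdk2 was at 206, 181 and 167 across controls and 205, 192 and 181 across morphants. Cyclin A2, needed in S phase and G2, was at 137, 211 and 153 for ccna2 across controls and 199, 177 and 187 across morphants, so its controls spanned the morphants.

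The mitotic cyclins differed in sign among themselves. The gene ccnb1 was at 438, 355 and 347 across controls and 334, 353 and 328 across morphants, with control 1 the highest by 83 units (log2 fold change -0.16 ± 0.11; -0.05 without control 1). The gene ccnb2 was at 61, 56 and 37 and then at 57, 61 and 68 (log2 fold change 0.30 ± 0.23), and ccnb3 at 106, 166 and 134 and then at 151, 131 and 144 (0.09 ± 0.18). Their kinase gene cdk1 was at 455, 387 and 356 and then at 410, 390 and 344. Adjusted p in limma was 0.519, 0.554, 0.833 and 0.83 in that order, and the groups overlapped for all 4 genes.

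Mitotic kinase, spindle and checkpoint genes gave 6 positive and 5 negative log2 fold changes among 11 rows, with a median of 0.00. The gene mad2l1, which encodes the checkpoint protein Mad2, had the lowest p of the 41 rows. It was at 256, 227 and 225 across controls and 221, 153 and 164 across morphants. All 3 morphants lay below all 3 controls, by 4 units at the nearest, and morphants 2 and 3 lay well below morphant 1. The log2 fold change was -0.41 ± 0.16 (SE, 3 libraries a group), 0.75-fold with a 95% interval of 0.59-fold to 0.96-fold (unadjusted p = 0.0288, limma adjusted p = 0.272). Without control 1 it was -0.35 (unadjusted p = 0.0736), and its adjusted p ranged from 0.108 to 0.599 over the alternatives.

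The partners of Mad2 in the spindle checkpoint overlapped between groups. The kinase gene bub1 was at 276, 369 and 240 across controls and 304, 307 and 350 across morphants, bub3 at 232, 261 and 194 and then 225, 228 and 191, and ttk, which encodes Mps1, at 290, 247 and 249 and then 296, 279 and 266. The target of the checkpoint, cdc20, was at 304, 311 and 232 and then at 328, 280 and 239, with means of 282 in both groups. For these 4 genes limma gave adjusted p of 0.702, 0.791, 0.686 and 1.0. The difference between mad2l1 and its partners was not tested.

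Among the mitotic kinases aurka, which acts at the spindle poles, was at 199, 169 and 144 across controls and 144, 160 and 107 across morphants, with morphant 3 the lowest (log2 fold change -0.32 ± 0.19, limma adjusted p = 0.426). The kinase gene plk1 was at 597, 599 and 564 and then at 655, 531 and 448, so the morphants lay on both sides of the controls. The chromosomal passenger genes aurkb, at 266, 206 and 181 and then 220, 205 and 211, and birc5a (survivin), at 108, 78 and 85 and then 111, 79 and 82, overlapped between groups. The spindle motor gene kif11 and the topoisomerase gene top2a, whose product untangles sister chromatids, were at 545, 708 and 528 and then 631, 639 and 562, and at 659, 812 and 677 and then 877, 768 and 705.

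The proliferation marker mki67, matched by ID to the row MKI67 (ENSDARG00000091150, chromosome 12), was higher in every morphant than in any control. So were 11.6% of all genes tested, and 8.99% were higher at an unadjusted limma p of 0.05. With MKI67 added to the replication and division genes, the groups did not overlap for 2 higher genes. It was at 1510, 1909 and 1824 across controls and 2339, 2217 and 2029 across morphants, the log2 fold change being 0.33 ± 0.11 (SE, 3 libraries a group), 1.06-fold to 1.49-fold at 95% (unadjusted p = 0.0137, limma adjusted p = 0.231). Without control 1, its lowest library, the log2 fold change was 0.23 (unadjusted p = 0.0263), and its adjusted p ranged from 0.15 to 0.554 over the alternatives. It was named because the list holds mki67, and its row was looked up by gene ID after the symbol was not found.

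How closely these libraries bound the group difference can be read from the intervals. Of the 39 replication and division genes, all 39 had an estimate within a 1.5-fold change either way, and 33 (84.6%) had a limma 95% interval wholly within it. Over all genes tested 39.9% had such an interval, as did 65.2% of the 14811 genes whose mean lay in the range of these genes (56.7 to 2470). The 6 whose interval reached beyond 1.5-fold were gmnn, chek1, ccne1, ccnb2, aurka and mad2l1. Under equal totals 28 of the 39 intervals stayed within 1.5-fold (39.1% over all genes), and without control 1 it was 34 (45.3% over all genes).

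**Figure D3:**
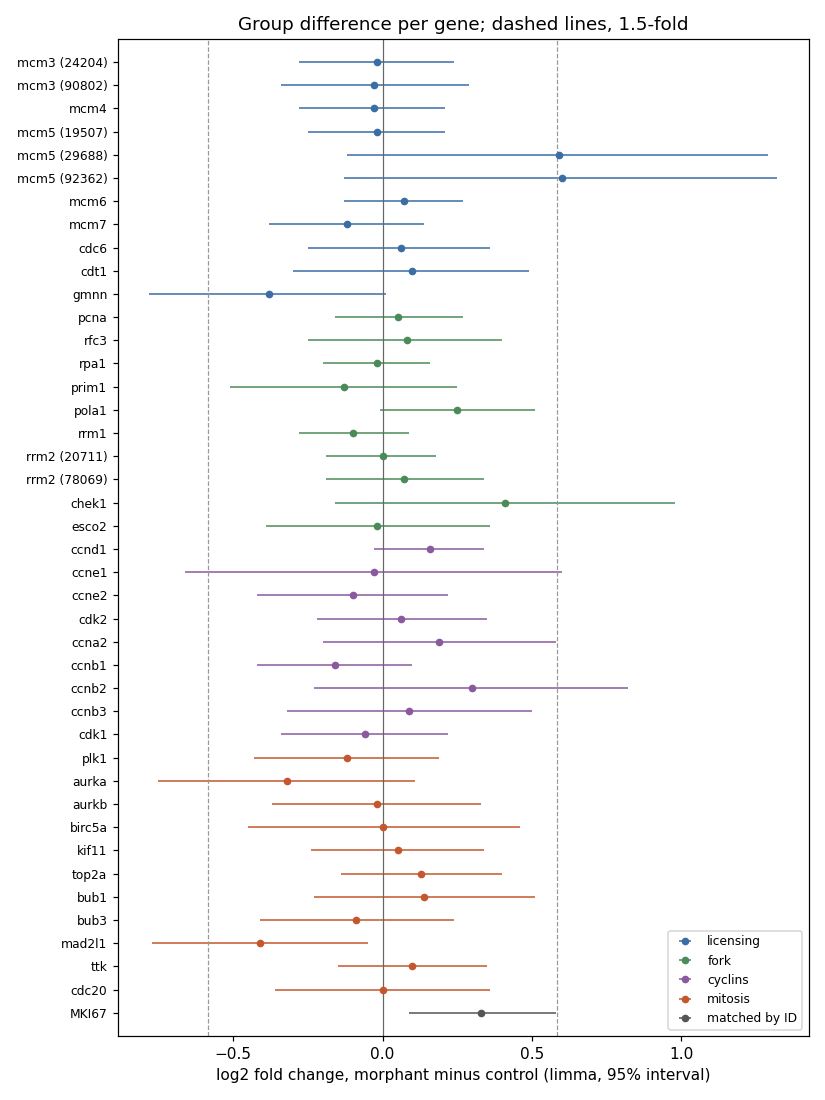
Log2 fold change, morphant minus control, of each row with its 95% interval from limma; dashed lines mark a 1.5-fold change either way and colours the role of the gene. The intervals of mad2l1 and MKI67 leave out 0 before adjustment, and the 2 rows headed mcm5 that the current gene table names as Hsp70 genes have the widest intervals.

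Within each group the libraries stood at different levels for these genes. Each gene's log2 value was set against its own mean over the 6 libraries, and the median of the 39 genes was 0.08, 0.09 and -0.13 in controls 1 to 3 and 0.11, 0.00 and -0.03 in morphants 1 to 3. Genes of like level had medians between 0.00 and 0.03 in every library. Control 3 was below control 2 for 35 of the 39 genes, with a median difference of -0.19, and morphant 3 was below morphant 1 for 33, with a median difference of -0.17. With equal library totals these counts were 32 and 32, and the median differences -0.14 and -0.14. Control 3 was below control 1 for 31 genes, but for 24 with equal library totals (median difference -0.10). Morphant 2 was below morphant 1 for 27 genes, and for 23 with equal library totals (median difference -0.05). Control 3 was the lowest of the 6 libraries for 15 genes and the highest for 0.

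By role, the medians had the same sign in 3 libraries and differed in sign or were at 0.00 in the others. In control 3 the median deviation was -0.11 for licensing, -0.12 for the fork, -0.13 for cyclins and -0.14 for mitosis. In the same order of roles it was 0.10, 0.05, 0.01 and 0.15 in control 2 and 0.04, 0.13, 0.12 and 0.11 in morphant 1, above 0 for every role. In morphant 3 it was -0.13 for mitosis, with 10 of 11 genes below their own mean, and 0.00 for licensing and for the fork and 0.02 for cyclins. In control 1 the cyclins lay at -0.06, while licensing, fork and mitosis genes lay at 0.08, 0.04 and 0.10. These are descriptions of single pools of 10 embryos, and differences between pools of a group were not tested.

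**Figure D4:**
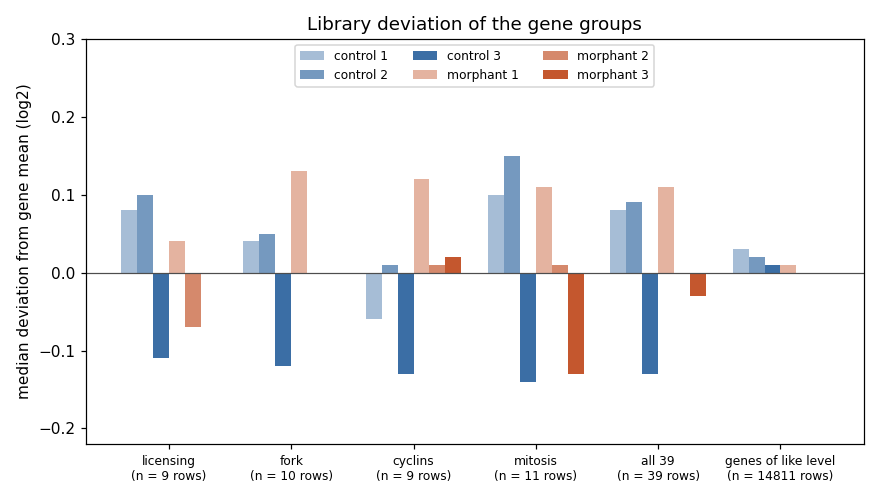
Median over genes of the log2 deviation from each gene's mean of the 6 libraries, by role, for controls (blue) and morphants (red); missing bars are at 0.00. Control 3 is at -0.11 to -0.14 in all 4 roles, against deviations of at most 0.03 for 14811 genes of like level.

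The wider machinery, as 11 lists holding 240 names, gave 226 tested rows with 0 called higher and 0 called lower by limma. At an unadjusted p of 0.05, 23 rows were higher and 7 lower, 13.3% in all against 15.9% of all genes (8.99% higher and 6.93% lower). The counts were 19 and 3 without control 1, 51 and 3 with equal library totals, and 21 and 8 with library weights. Of all genes 13.1%, 17.6% and 19.8% passed in either direction in those 3 settings. The median log2 fold change was 0.06 with 143 positive and 83 negative (184 positive with equal library totals, whose median relative to all genes was also 0.06). Under library weights the median was 0.02, with 119 positive and 107 negative. Condensin and cohesin genes had 22 of 25 positive and a median of 0.16. The median condensin or cohesin gene deviated by -0.20 in control 1, against -0.08 to 0.14 in the other libraries, and without control 1 the list had 21 positive and a median of 0.12. The part of that library in the result was not tested. Replication checkpoint and repair genes had 13 of 17 positive and a median of 0.16, or 0.11 without control 1. Library weights left 10 of the 17 positive, with a median of 0.10.

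Within the wider lists, the rows with the lowest p lay at very different levels. The groups did not overlap for 20.8% of all the wider rows, against 21.8% of all genes tested. By list the share was highest for the other cyclins and kinases (35.7% of 14 rows) and for replication checkpoint and repair (35.3% of 17). It was lowest for the cycle brakes with the Rb and E2F genes (9.09% of 33). The cohesin loader gene nipblb was at 676, 808 and 826 across controls and 1047, 1020 and 1045 across morphants, above all controls (log2 fold change 0.44 ± 0.10, SE, 3 libraries a group; limma adjusted p = 0.165). The gene cad, whose product starts pyrimidine synthesis, was at 1055, 1148 and 1202 and then at 1532, 1496 and 1431, again without overlap (0.39 ± 0.08, limma adjusted p = 0.158), and with library weights estimated by limma cad passed (adjusted p = 0.0467). A row headed atm, a damage kinase gene (ENSDARG00000063465), was at 25, 52 and 49 and then at 76, 83 and 91, with control 1 the lowest. Its log2 fold change was 1.04 ± 0.29, 1.30-fold to 3.23-fold (limma adjusted p = 0.199). Another row headed atm (ENSDARG00000002385) did not reach an unadjusted limma p of 0.05. The cyclin A1 gene ccna1, a cyclin of the germ line in mammals, was at 0, 1 and 1 and then at 6, 5 and 6 (2.07 ± 0.44, limma adjusted p = 0.158). It did not overlap between groups but rested on at most 8 estimated reads in any library. In the other direction dscc1, a subunit of a clamp loader used in cohesion, was at 81, 82 and 60 and then at 47, 47 and 33 (-0.80 ± 0.23, limma adjusted p = 0.203).

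Mitotic genes of the wider lists with the lowest p were of the kinetochore and spindle. The kinetochore motor gene cenpe was at 455, 582 and 505 across controls and 707, 701 and 650 across morphants, and kntc1, a subunit of a kinetochore complex, at 189, 255 and 188 and then at 290, 312 and 302. The spindle motor gene kif15 was at 184, 228 and 217 and then at 317, 294 and 263. The groups did not overlap for these 3 genes, which were picked for their low p, and limma adjusted p was 0.197 for each. Rows without overlap made up 21.7% of the kinetochore list and 25.0% of the spindle and cytokinesis list, against 21.8% of all genes tested. In these lists the medians were 0.02 for 23 kinetochore rows, 13 of them positive, and 0.05 for 24 spindle and cytokinesis rows, 16 of them positive. Without control 1 they were 0.05 with 12 positive and 0.03 with 13 positive, and under library weights the kinetochore median was -0.04.

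Brakes on the cycle and the Rb and E2F genes had 16 of 33 rows positive and a median of -0.01. The antiproliferative gene btg2 was at 463, 448 and 354 across controls and 243, 331 and 334 across morphants, with every morphant below every control (log2 fold change -0.48 ± 0.16, limma adjusted p = 0.235). The Rb family gene rbl1 was at 123, 184 and 149 and then at 203, 216 and 189 (0.43 ± 0.16, limma adjusted p = 0.269). Both btg2 and rbl1 were picked for their low p. Rows without overlap made up 9.09% of this list, against 21.8% of all genes tested. The Cdk inhibitor gene cdkn1a (p21) was at 142, 122 and 96 and then at 112, 140 and 132, and wee1, whose kinase delays mitosis, at 215, 230 and 180 and then 222, 226 and 197. Both were chosen after their values were seen, and both overlapped between groups.

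The remaining 6 wider lists had medians between -0.07 and 0.09. Origin and helicase activation genes had 15 of 20 rows positive (median 0.09), polymerases and fork factors 12 of 20 (0.08), nucleotide synthesis genes 13 of 17 (0.09) and genes of replicated chromatin 11 of 15 (0.08). The anaphase promoting complex list had 6 of 18 rows positive (median -0.07) and the other cyclins and kinases 6 of 14 (median -0.06). With equal library totals the last 2 lists had 11 and 10 positive rows, as the median of all genes moved by 0.11. Without control 1 the anaphase promoting complex list had 9 of 18 positive and a median of 0.00, and the other cyclins and kinases 5 of 14 and -0.09. The same omission moved the median to 0.16 for nucleotide synthesis, 0.04 for polymerases and 0.06 for origin activation. Library weights left 11 of 20 rows positive for origin activation (median 0.06) and 11 of 20 for polymerases (0.02). With these weights replicated chromatin had 8 of 15 positive (0.02) and nucleotide synthesis 13 of 17 (0.09). Among the other cyclins ccnd2b, picked for its low p, was at 95, 99 and 97 across controls and 124, 135 and 141 across morphants (log2 fold change 0.45 ± 0.13, limma adjusted p = 0.206). Rows without overlap, of which ccnd2b was one, made up 35.7% of its list, against 21.8% of all genes tested.

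Markers of dividing and of differentiated tissues were set beside these genes, and 0 of their 91 tested rows were called by limma, with 4 higher and 22 lower at an unadjusted p of 0.05, where 8.99% and 6.93% of all genes were. The 22 became 14 with equal library totals, 16 without control 1 and 32 with library weights, which called 8 marker rows and 329 of 26082 genes. In the same order of settings, 17.6%, 13.1% and 19.8% of all genes passed an unadjusted p of 0.05 in either direction. Neural and retinal progenitor genes had 11 of 16 rows negative and a median of -0.18 (-0.11 without control 1), with summed levels of 4435 to 4768 in controls and 4546 to 4881 in morphants. The row of that list with the lowest p, notch3, went the other way and was a large part of each sum. It was at 1337, 1505 and 1661 across controls and 1799, 1979 and 1837 across morphants (log2 fold change 0.32 ± 0.10, limma adjusted p = 0.217). Blood progenitor genes had 4 of 6 negative (median -0.17, or -0.10 without control 1; sums of 620 to 706 and 574 to 722). Germ cell genes had 5 of 6 negative and a median of -0.71, with sums of 423 to 530 and 366 to 391. Most of each sum was piwil1, at 457, 403 and 368 across controls and 350, 345 and 337 across morphants (log2 fold change -0.24). The germ cell helicase gene vasa was at 39, 20 and 17 and then at 14, 9 and 13 (limma adjusted p = 0.283), on 12 to 25 estimated reads. The gene tdrd7 was at 9, 15 and 15 and then at 10, 8 and 1. The germ cell median thus rested on low rows, and the median half-width of the list's limma intervals was 1.07. Skeletal muscle, skin, lens, photoreceptor and exocrine pancreas lists, of 7, 6, 5, 6 and 6 rows, were negative for every row (6 of 7 muscle and 5 of 6 pancreas rows under equal totals), with medians of -0.27, -0.44, -0.39, -0.37 and -0.56. Without control 1 the exocrine pancreas list had 4 of 6 rows negative and a median of -0.34, and under library weights 4 of 6 and -0.13. In morphants 1 to 3 the median deviation from each gene's own mean was -0.70, 0.01 and 0.07 for photoreceptors and -1.31, 0.02 and 0.48 for the exocrine pancreas. For the intestinal list given below it was -0.46, -0.03 and 0.36, so morphant 1 lay lowest in these lists. It lay highest of the morphants in muscle (-0.03, -0.31 and -0.28) and skin (-0.03, -0.36 and -0.23). The part of morphant 1 in the group differences was not tested.

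For muscle the sums were 344430 to 352688 in controls and 263813 to 298289 in morphants, for lens 17394 to 21875 and 12586 to 14527, and neither pair of ranges overlapped. Sums for skin (180237 to 236831 and 142949 to 193318) and for the exocrine pancreas (8904 to 17684 and 4284 to 14876) did overlap, while those for photoreceptors (67239 to 82606 and 37686 to 64579) did not. The photoreceptor ranges were apart on the authors' scaling but not under equal library totals. There 0 photoreceptor rows were lower at an unadjusted limma p of 0.05, against 2 on the authors' scaling. Erythroid genes had 7 of 9 rows negative (median -0.22; sums 24733 to 30569 and 18740 to 28624). The globin gene hbbe3 of that list was at 6, 4 and 1 and then at 45, 112 and 41, higher in every morphant (log2 fold change 3.87 ± 0.55; limma adjusted p = 0.115, and for hbbe3 0.0331 with the robust step and 0.0156 with library weights). Globin genes are close copies that may share reads. The median was -0.05 for 7 liver genes (sums 47347 to 52539 and 42201 to 49724), -0.11 for 5 intestinal genes (12200 to 14866 and 8734 to 13555), 0.24 for 5 heart genes (1464 to 1675 and 1584 to 1843) and -0.01 for 7 neuronal genes (14515 to 15912 and 14917 to 16221). Of the heart genes 3 were positive and 2 negative. The heart gene myl7 was at 358, 243 and 284 and then at 195, 208 and 218 (log2 fold change -0.49 ± 0.15, limma adjusted p = 0.219), while myh6 had 0.60 ± 0.24. Of the liver genes 3 were positive and 4 negative. The liver gene tfa was at 13742, 12805 and 12251 and then at 9169, 8032 and 9301 (-0.55 ± 0.09, limma adjusted p = 0.127, and 0.0287 with library weights). The neuronal gene elavl3 was at 737 in control 1 against 1897 and 2106 in controls 2 and 3 and 2310 to 2531 in the morphants. With equal library totals the liver, intestine and neuron medians were positive (0.06, 0.01 and 0.10), but the median of all genes was 0.11. Relative to all genes they stayed at -0.05, -0.11 and -0.01. Without control 1 the medians were 0.09 for liver, 0.06 for intestine, 0.15 for heart and -0.07 for neurons. The part of these tissue levels in the values of the replication and division genes was not tested.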

How the data were processed

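RNA-seq of 6 libraries was used, 3 per group, grouped by sample title. The deposited values are a score: read counts per gene divided by a library size factor and rounded to whole numbers by the authors. This reading comes from the values and from a last line headed as size factors, left empty, per the file headers (1 line per file names no gene and holds no value). Per the submitters' processing notes, Zv9 was the genome build. Aligner, counter and strand setting were not given in the sources used here. Read depth was estimated by searching the worth of 1 read between 0.6 and 2.0 from how often whole numbers from 3 to 100 occur.

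Genes reaching 1 or more in 3 or more libraries (26082) were transformed as log2(value + 1) and fitted in limma 3.58.1 (R 4.3.3) using group alone, a trend of variance on mean, two-sided p, Benjamini-Hochberg at 0.05. Intervals are 95% intervals of limma. Exact reads cannot be recovered from rounded values, so no count test was run. The fit was tested on simulated data.

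Members and lists were chosen with earlier results of these data known. Named were all members, slc2a12 and up to 3 genes of each of 11 wider and 13 marker lists with the lowest p (219 of 240 and 87 of 88 entries found, by symbol or by the current symbol of the gene ID); not all are printed. Alternatives were other scalings, filters, a pseudocount of 0.1, limma without the trend, robust or with library weights, the replicate block and each library left out. Member sets without the 2 Hsp70-named rows, and with MKI67, were added after seeing the data.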

Additional observations from a re-analysis of the deposited data

How the results depend on the processing

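Under all 15 alternatives 0 of the 41 rows were called by limma, the smallest adjusted p being 0.108 (mad2l1, library weights), and 18 rows kept their sign throughout, 23 changing it in at least 1 alternative, 13 of them with equal library totals. The count of genes called over all genes, 6, was 11 with equal library totals, 14 with a mean of at least 10, 2 with a pseudocount of 0.1, 30 without the trend, 51 with the robust step, 329 with library weights and 1 to 5 with 1 library left out. With equal library totals, which raised the median of all genes by 0.11, the median log2 fold change was 0.11 for the members, 0.09 for licensing, 0.14 for the fork and 0.18 for cyclins. That for cyclins was -0.02 with library weights. With 1 library left out the medians ran from -0.03 to 0.06 for members, -0.04 to 0.06 for licensing, -0.03 to 0.07 for the fork, -0.01 to 0.15 for cyclins and -0.13 to 0.07 for mitosis. Rows higher at an unadjusted p of 0.05 (0) were 2 with equal library totals (pola1, ccnd1), 2 with library weights (both Hsp70-named rows), 1 with MKI67 added and 0 to 3 with 1 library left out. Rows lower (1) were 0 with equal library totals, 2 with a pseudocount of 0.1 and 0 to 2 with 1 library left out. Of all genes 15.9% passed in either direction in the main fit, 17.6% with equal library totals and 19.8% with library weights. None of the other named genes was called in the main fit, so none could lose a call. Of their values 0 reversed and 11 became called, 10 of them with library weights. The cause of these shifts was not tested.

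The labels do not say whether the replicate numbers pair the libraries. Same-numbered deviations from the group means correlated at 0.10, -0.06 and 0.12 over 15942 genes, and control 3 correlated more with morphant 2 (0.21). Deviations from a mean of so few libraries are tied to each other, so these values cannot decide whether the libraries were paired. With the replicate block 2 genes were called over all genes and 0 members. Depth limits the low genes most, as in control 1.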
